A study of Mus musculus with 6 samples.

Results

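The genes described here are 33 mouse genes that have been reported as targets of the microRNA miR-155. They were chosen by name from a list, with earlier results of these data known. All 33 are among the 22475 genes of the deposited count table, and all 33 passed the filter on low counts that left 13217 genes for testing. The libraries were made from Lin- cKit+ Sca1+ bone marrow cells, the flow cytometry gate that holds mouse blood stem cells and early progenitors. Every mouse carried FLT3-ITD on both alleles. This tandem duplication inside the gene makes the receptor kinase Flt3 signal without its ligand and is found in acute myeloid leukaemia. The control group, FLT3-ITD, was wild type at miR-155, and the other group, FLT3-ITD miR-155-/- (called knockout below), lacked miR-155 on both alleles. Each group had 3 libraries, and each library was made from the RNA of 3 mice combined. No library of mice without FLT3-ITD was analysed here, so all values compare loss of miR-155 within FLT3-ITD marrow. The labels do not give age, strain or sex of the mice, the cells in which each allele acts, or whether pools were collected together. Each p-value below is set by how much these pools varied, whatever the source.

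MicroRNAs are short RNAs that guide an Argonaute protein to messenger RNAs, mostly to sites in the 3' untranslated region (3' UTR) that pair with the seed, the bases near the 5' end of the microRNA. Pairing lowers translation of the messenger, shortens its life, or both, and RNA-seq measures only the second of these. miR-155 is processed from a noncoding host transcript that is induced in activated lymphoid and myeloid cells, and its best known targets in blood cells are Inpp5d, which encodes the inositol phosphatase SHIP1, the transcription factors Spi1 (PU.1) and Bach1, and the chromatin regulator Jarid2.

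The mature sequence and the seed matches in the genes with values in every library are shown first, because they are what the 33 genes are reported to share. The mature strand miR-155-5p has 23 bases, written 5' to 3' with its seed, bases 2 to 8, in capitals, and lies at chr16:84714143-84714165 on the plus strand of GRCm38 (RefSeq).
miR-155-5p: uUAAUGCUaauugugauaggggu
Its perfect match in a messenger is AGCATTAA (8mer, seed match followed by A), AGCATTA without the final A (7mer-m8), or GCATTAA (7mer-A1). The sites below are on the transcribed strand of the longest annotated 3' UTR of each gene (GENCODE M21, GRCm38). The match is in capitals and the other bases are in lower case. These lie upstream of the match, except for the last base of Bach1 site 2, which follows it.
Inpp5d: gggtcctgagatgtttttaaaaAGCATTAA
Spi1: gctcctggaccccgccggccatAGCATTAA
Bach1 (site 1): aatttctctctatgaacagtttAGCATTAA
Bach1 (site 2): taataatagaaatatattgcatAGCATTAt
Jarid2 (site 1): tttagagaactgattttgttttAGCATTAA
Jarid2 (site 2): ctctgcttgtgtccctcacatcAGCATTAA
Trp53inp1: agtacatttttacactaacacaAGCATTAA
Ets1: agaccagcactctgggttttaaAGCATTAA
Tab2: aaagcaatgccataaggtagaaAGCATTAA
Peli1: aagtttctctgctctggtcatttGCATTAA
Rictor: aatgtgtacagtttatgttaaggGCATTAA

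The Inpp5d match lies at chr1:87719838-87719845, 514 bases after the stop codon. The Spi1 match, at chr2:91115437-91115444, is only 42 bases after the stop codon in a 3' UTR of 362 bases, the shortest of the 33. The Bach1 matches are at chr16:87732188-87732195 and chr16:87732400-87732406, and the Jarid2 matches at chr13:44920093-44920100 and chr13:44920866-44920873. The Trp53inp1 match is at chr4:11170429-11170436 and the Ets1 match at chr9:32757208-32757215, both on the plus strand. The Tab2 match is on the minus strand at chr10:7906691-7906698. Peli1 and Rictor have the weaker 7mer-A1 form, at chr11:21148622-21148628 and chr15:6800329-6800335. Fadd, the remaining gene with values in every library below by the fixed rule, has no match of these letters in its longest annotated 3' UTR.

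Across the 33 genes the search found 35 matches, of which 15 were 8mers, 11 were 7mer-m8 and 9 were 7mer-A1. A match of some kind was present in 26 of the 33 genes (78.8%), against 13.9% of the 11717 tested genes with an annotated 3' UTR. The best match was an 8mer in 13 genes (39.4%, against 3.37% of those 11717), a 7mer-m8 in 9 (27.3% against 5.98%) and a 7mer-A1 in 4 (12.1% against 4.58%). 8 genes had more than 1 match, among them Picalm with 3. The 7 genes without a match were Fadd, Foxo3, Maf, Phf14, Pik3r1, Smad1 and Smad2. The 3' UTRs of the 33 genes were longer than most, with a median of 1800 bases against 1185 for the tested genes, and the shares are not corrected for length. Such matches are what the 33 genes are reported to share, so a share above that of all tested genes is not an independent result. A match is a string of letters and does not by itself show a working site.

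The libraries held 6843129 to 9443615 counts assigned to genes. The transcript that hosts miR-155, Mir155hg (ENSMUSG00000097418, chr16:84703167-84715245, plus strand), had 33, 48 and 36 counts in control replicates 1, 2 and 3 and 4, 14 and 4 in knockout replicates 1, 2 and 3. Its log2 fold change, knockout against control, was -2.14 ± 0.46 (SE), with an adjusted p of 0.274 by the edgeR quasi-likelihood test, 0.0377 with the replicate number as a block and 0.0182 by DESeq2, and the libraries of both groups went with their labels. The gate genes Kit, Ly6a (Sca-1) and Flt3 differed by -0.12, 0.11 and -0.05 on the log2 scale and none was called. Markers of mature B and plasma cells summed to 3080 to 4445 CPM (counts scaled to the library total, with edgeR's TMM factors) in the controls and 696.5 to 1767 in the knockouts, although lineage-positive cells are removed by the gate. In bulk RNA, fewer cells of a type and less RNA per cell cannot be told apart.

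No reported target was called higher in the knockout, by any of the tests run. At an adjusted p under 0.05, edgeR called 0 of the 33 higher and 0 lower, where 0.0151% of all tested genes were called higher and 0.144% lower. At an unadjusted p under 0.05, edgeR had 0 of 33 higher, against 1.41% of all tested genes, and 2 of 33 lower, against 2.48%. Those 2 were Trp53inp1 and Ets1, both with a lower level in the knockout. With the replicate number as a block, edgeR called those same 2 genes lower (6.06%, against 1.04% of all genes) and 0 higher (against 0.318%). DESeq2 called 1 lower, Trp53inp1, against 0.794% of its genes, and 0 higher, against 0.0516%. The authors' deposited table also lists 1 of the 33 as lower, Trp53inp1, against 0.597% of its genes.

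The median log2 fold change of the 33 genes was 0.03, against 0.00 for all tested genes, and 20 were above 0 and 13 below. The values ran from -0.85 for Trp53inp1 to 0.25 for Peli1, and without Trp53inp1, Ets1 and Maf from -0.23 to 0.25. The median standard error was 0.128, against 0.15 over all tested genes. For 26 of the 33 (78.8%, against 61.1% of all tested genes) the whole 95% interval of the edgeR fit lay within a 1.5-fold change in either direction. The other 7 were Trp53inp1, Ets1, Maf, Spi1, Fadd, Arntl and Foxo3. The 33 genes were also well expressed, with a median of 22.6 FPKM (fragments scaled for transcript length and library depth) in the controls against 10.1 for all tested genes, from 1.83 for Maf to 167.5 for Myb.

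**Figure D1:**
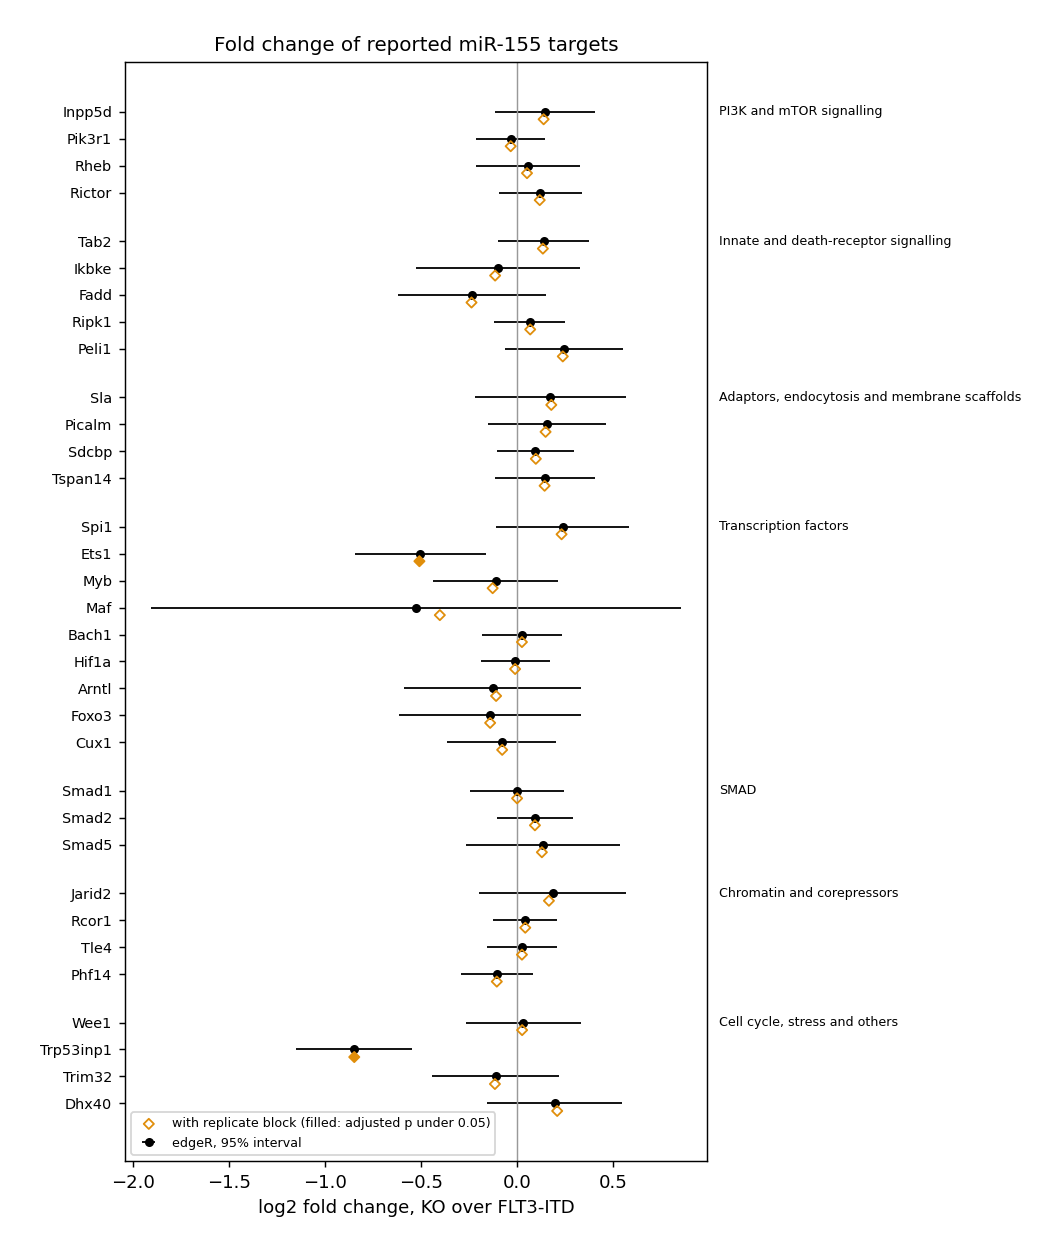
Log2 fold change of knockout against control for the 33 reported targets, grouped by role, with the 95% interval of the edgeR fit as horizontal bars. Of the 33 intervals, those of Trp53inp1 and Ets1 do not cross 0, and both lie below it.

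Among the 4 genes of phosphoinositide 3-kinase (PI3K) and mTOR signalling, 3 were above 0 and 1 below, with a median of 0.09. Inpp5d, whose product SHIP1 removes the phosphate that PI3K adds to its lipid and so dampens Akt signalling, had 473.9, 451.8 and 478.0 CPM in control replicates 1, 2 and 3 and 598.4, 500.9 and 456.6 in knockout replicates 1, 2 and 3. Knockout replicate 1 was the highest of the 6 and knockout replicate 3 lay inside the control range, so the groups overlapped. The difference was 0.15 ± 0.11 (SE, n = 3 per group, log2 scale), with a 95% interval of -0.11 to 0.41 and an edgeR adjusted p of 0.9996. Without knockout replicate 1 it was 0.04. Rictor, a defining subunit of mTOR complex 2, had 168.8, 157.9 and 161.2 CPM in the controls and 198.8, 168.5 and 164.3 in the knockouts. Knockout replicate 1 was the only library above all controls, and the log2 fold change was 0.12 ± 0.09, or 0.04 without that library. Rheb, the small GTPase that activates mTOR complex 1, differed by 0.06 ± 0.12, and Pik3r1, the p85 regulatory subunit of PI3K, by -0.03 ± 0.08.

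The pathway genes outside the list were examined beside them. Of the 13 other PI3K and mTOR genes, which include the catalytic subunits, the Akt kinases and the Tsc1 and Tsc2 brake on mTOR, edgeR called 0, with or without the block, and DESeq2 called 0. Their median log2 fold change was 0.03, with 8 above 0 and 5 below, and the only one at an unadjusted edgeR p under 0.05 was Inpp4b, an inositol phosphatase, at -0.39.

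Of the 5 genes of innate and death-receptor signalling, 3 were above 0 and 2 below, with a median of 0.07. Peli1, a ubiquitin ligase of the Toll-like and interleukin-1 receptor pathways, had 77.19, 79.64 and 66.8 CPM in the controls and 104.6, 79.77 and 81.0 in the knockouts. It was the only gene of the 33 whose knockout libraries were all above all controls (3.03%, against 3.43% of all tested genes), and control replicate 2 and knockout replicate 2 were nearly equal. Its log2 fold change was 0.25 ± 0.13, with an adjusted p of 0.9996 by edgeR and 0.504 with the block, and it was 0.11 without knockout replicate 1. Tab2, the adaptor that couples ubiquitin chains to the kinase TAK1, had 139.4, 149.2 and 132.1 CPM in the controls and 170.0, 157.8 and 135.9 in the knockouts. Knockout replicate 3 lay inside the control range, and the difference was 0.14 ± 0.10, or 0.07 without knockout replicate 1. Fadd, the adaptor that links death receptors to caspase-8, had 15.18, 14.9 and 17.68 CPM in the controls and 13.15, 15.72 and 11.69 in the knockouts. The groups overlapped through knockout replicate 2, and the difference was -0.23 ± 0.17. Ripk1, the kinase shared by the tumour necrosis factor and death pathways, differed by 0.07 ± 0.08, and Ikbke, an interferon-pathway kinase, by -0.10 ± 0.18.

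All 4 adaptors and membrane scaffolds had a higher mean in the knockout, by small amounts: 0.18 ± 0.17 for Sla (SLAP, an adaptor that dampens antigen receptor signalling), 0.16 ± 0.13 for Picalm (a clathrin assembly protein), 0.15 ± 0.11 for Tspan14 (a tetraspanin) and 0.10 ± 0.09 for Sdcbp (syntenin, a PDZ scaffold). None passed the test, with an edgeR adjusted p of 0.9996 for each, and the lowest adjusted p with the block was 0.536, for Tspan14. Without knockout replicate 1, Sla was at 0.04, Picalm at 0.02, Tspan14 at 0.23 and Sdcbp at 0.09. Without both libraries of number 1 they were at 0.20, 0.10, 0.15 and 0.13, in the same order. In each of the 4 the knockout library was above the control library of the same number in all 3 pairs. Of all tested genes, 15.1% had this pattern.

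Of the 9 transcription factors 2 were above 0 and 7 below, with a median of -0.11. Spi1, the ETS family factor of myeloid and B cell development, had 127.5, 107.9 and 100.5 CPM in the controls and 159.3, 123.9 and 113.6 in the knockouts. Within each group replicate 1 was highest and replicate 3 lowest, the groups overlapped, and the knockout was higher in all 3 pairs of equal number. The difference was 0.24 ± 0.15 with an edgeR adjusted p of 0.9996, and 0.273 with the block. It was 0.09 without knockout replicate 1, 0.35 without control replicate 1 and 0.19 without both libraries of number 1. Bach1, a heme-sensing repressor with a pair of matches, had 85.43, 97.63 and 99.84 CPM in the controls and 93.13, 94.34 and 100.4 in the knockouts. Its groups overlapped, and the difference was 0.03 ± 0.09 with a 95% interval of -0.18 to 0.23.

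Ets1, a factor needed for the development of T, B and natural killer cells, had 48.46, 59.93 and 59.61 CPM in control replicates 1, 2 and 3 and 32.88, 45.13 and 40.43 in knockout replicates 1, 2 and 3. All knockout libraries were below all controls, and in both groups replicate 1 was lowest. The log2 fold change was -0.50 ± 0.15 (95% interval -0.84 to -0.16), with an edgeR adjusted p of 0.654. With the replicate number as a block it was -0.51 ± 0.08 and Ets1 fell, with an edgeR adjusted p of 0.0381. DESeq2 gave an adjusted p of 0.369. Without both libraries of number 1 the difference was -0.48, with an edgeR adjusted p of 0.243. The 12 T and natural killer cell markers were all detected in every library, and their summed level was 127.1 to 153.1 CPM in the controls and 82.57 to 135.3 in the knockouts. Of the 10 of them that were tested, 9 had a negative log2 fold change, with a median of -0.30. edgeR called 0 of these 10. Cd2 (-1.27) and Cd28 (-1.14), both T cell surface receptors, were at an unadjusted p under 0.05, with every knockout library below every control. Cd28 fell with the block (edgeR adjusted p = 0.0153) and by DESeq2 (adjusted p = 0.0132). Their part in the Ets1 result was not tested.

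The remaining transcription factors differed by less than their interval. Myb, the progenitor factor with the highest level per length of the 33 (167.5 FPKM in the controls), differed by -0.11 ± 0.14, Foxo3 by -0.14 ± 0.20, Cux1 by -0.08 ± 0.12, Hif1a, the oxygen-sensing subunit, by -0.01 ± 0.08, and the clock factor Arntl by -0.13 ± 0.20. Maf, named here after its values were seen, had 29.49, 8.365 and 7.924 CPM in the controls and 17.28, 7.798 and 7.014 in the knockouts. Replicate 1 of each group was far above the other libraries, and the log2 fold change of -0.53 ± 0.59 became 0.39 without control replicate 1. The 10 macrophage markers, with none at 0 in any library, also summed highest in replicate 1 of each group, at 923.4 CPM in the control and 709.2 in the knockout, against 192.2 to 334.2 in the other 4 libraries. The macrophage list was not alone in this. The 7 erythroid markers summed to 61.25 CPM in control replicate 1 and 43.28 in knockout replicate 1, against 4.347 to 9.631 in the other 4. Of these 7, 1 was at 0 in control replicate 2 and 2 in knockout replicate 2. The part of either list in the Maf values was not tested.

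**Figure D2:**
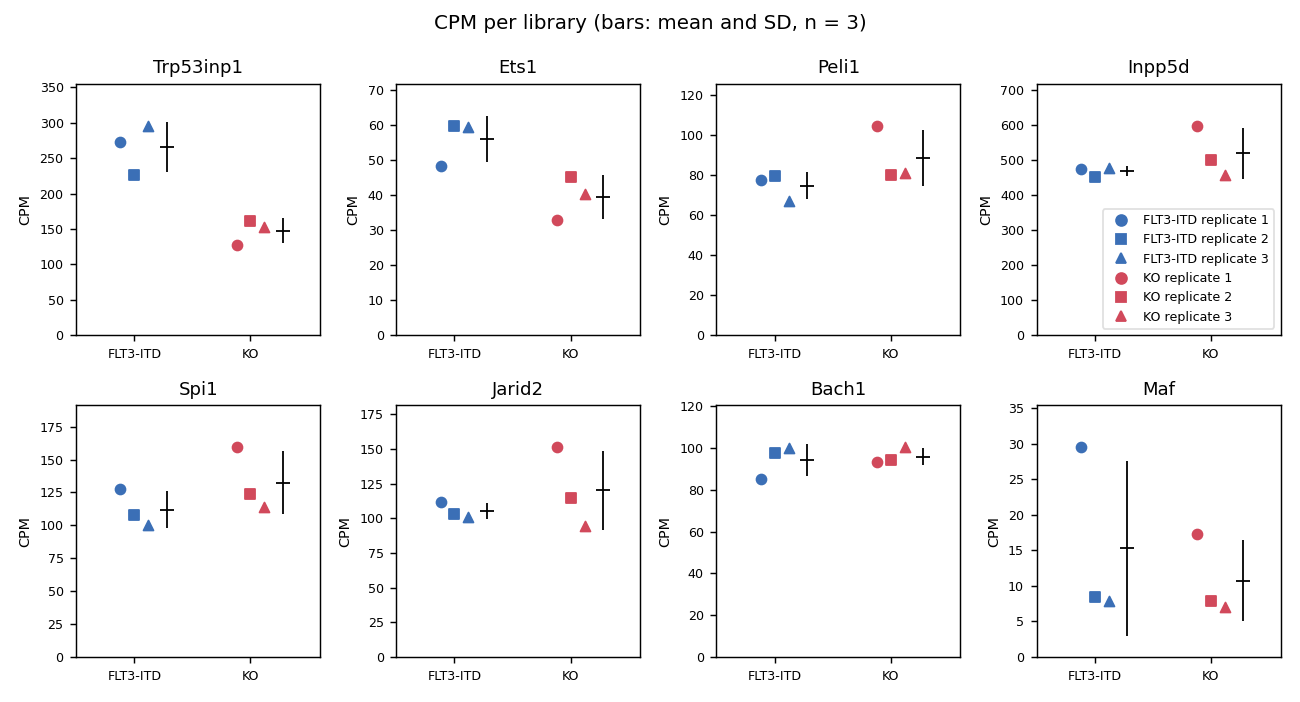
CPM in each of the 6 libraries for reported targets with values given in the text, 1 panel per gene, with the mean of each group marked. Trp53inp1 and Ets1 have every knockout library below every control, Peli1 has every knockout library above every control, and the other genes overlap.

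The 3 SMAD genes, which carry signals of the bone morphogenetic protein branch (Smad1 and Smad5) and the transforming growth factor β branch (Smad2), differed by 0.00 ± 0.10, 0.14 ± 0.17 and 0.09 ± 0.08 in the order Smad1, Smad5, Smad2. Of the 5 other SMAD genes 4 were tested, and their median was 0.09. None of these 4 was called by edgeR or DESeq2, and 0 had an unadjusted edgeR p under 0.05.

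Of the 4 chromatin and corepressor genes 3 were above 0 and 1 below, with a median of 0.04. Jarid2, a subunit of Polycomb repressive complex 2 and a gene with a pair of 8mer matches, had 112.0, 103.0 and 100.9 CPM in the controls and 151.2, 114.5 and 94.48 in the knockouts. Knockout replicate 1 was the highest of all libraries and knockout replicate 3 the lowest, so the spread within the knockout group exceeded the distance between groups. The difference was 0.19 ± 0.16, with an edgeR adjusted p of 0.9996, and it was -0.01 without knockout replicate 1. Rcor1, the CoREST corepressor, and Tle4, a Groucho family corepressor, differed by 0.04 ± 0.07 and 0.03 ± 0.08, with standard errors below the median of the 33. Phf14, a PHD finger protein, differed by -0.10 ± 0.08.

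The last 4 genes act in the cell cycle, stress responses and other processes, and 1 of them holds the clearest difference of the list. Trp53inp1, a p53-induced nuclear protein with antiproliferative and autophagy roles, had 273.2, 226.9 and 296.2 CPM in control replicates 1, 2 and 3 and 127.5, 161.6 and 152.7 in knockout replicates 1, 2 and 3. All knockout libraries were below all controls, with a gap between the groups, although its 3' UTR holds an 8mer match. Trp53inp1 and Ets1 were the 2 genes of the 33 with this separation (6.06%, against 4.79% of all tested genes). The log2 fold change of Trp53inp1 was -0.85 ± 0.13 (95% interval -1.15 to -0.55), with an edgeR adjusted p of 0.102. With the replicate number as a block it was -0.85 ± 0.12 and Trp53inp1 fell, with an edgeR adjusted p of 0.0218. DESeq2 gave an adjusted p of 1.22e-05, and edgeR with no filter on low counts gave 0.00915. The authors' deposited table lists a log2 fold change of -0.85 with an adjusted p of 2.09e-05 for Trp53inp1. Leaving out 1 library at a time moved the difference between -0.95 and -0.75.

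Markers of cells outside the gate were examined beside Trp53inp1. All 10 markers of mature B and plasma cells were detected in every library, 9 were tested, and all 9 had a negative log2 fold change, with a median of -1.54 and summed levels that did not overlap between the groups. edgeR called 0 of these 9, with 8 lower at an unadjusted p under 0.05, the block called 5 lower and DESeq2 called 4 lower. Of the 12 neutrophil and monocyte markers 11 were tested and 9 were negative, with a median of -0.70. Every knockout library was below every control in 8 of the 11, against 4.79% of all tested genes. The summed CPM of the 12 overlapped, at 2854 to 3934 in the controls and 3108 to 3208 in the knockouts. Its largest parts in every library were the 2 positive markers, Mpo (0.08) and Ccr2 (0.20). edgeR called 0 of these 11, with 8 lower at an unadjusted p under 0.05, the block called 0 and DESeq2 called 4 lower. Beside the counts of both lists, edgeR called 0.144% of all tested genes lower, with 2.48% lower at an unadjusted p under 0.05. The block called 1.04% lower and DESeq2 called 0.794% of its genes lower. The part of these cells in the Trp53inp1 result was not tested. Of the other genes in this group, Wee1, the kinase that holds cells before mitosis, differed by 0.03 ± 0.13, the ubiquitin ligase Trim32 by -0.11 ± 0.14, and the helicase Dhx40 by 0.20 ± 0.15, and none passed the test.

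**Figure D3:**
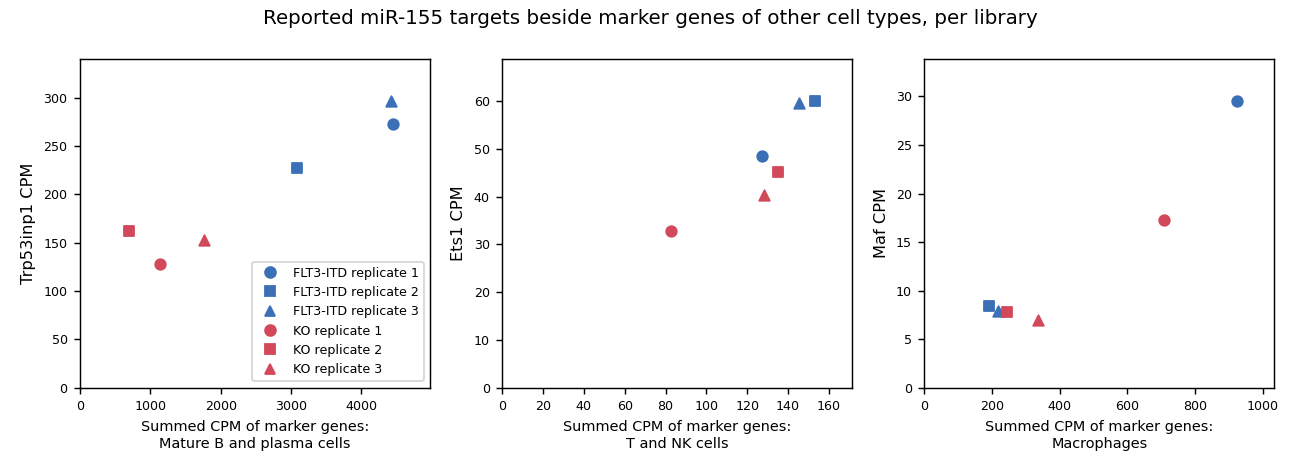
Reported targets in each library beside the summed CPM of the marker lists. The sum of the B and plasma cell markers and Trp53inp1 are both lower in every knockout library than in every control, and Maf and the macrophage markers are both highest in replicate 1 of each group.

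The libraries that carry the same number in both groups deviated together, and this was visible in the reported targets. Both libraries of number 1 were the lowest of their group in 11 of the 33 genes (33.3%, against 23.0% of all tested genes), among them Ets1, Foxo3, Smad5 and Tspan14. They were both the highest of their group in 12 genes (36.4%, against 21.8%), among them Spi1, Jarid2, Sla and Maf. The 8 stem and progenitor gate markers, all detected in every library, summed to 1517 and 1432 CPM in the libraries of number 1. In the other 4 they summed to 2002 to 2220. Cd34 was the largest part of this sum, at 748.0 and 648.5 CPM in number 1 of control and knockout. Ly6a went the other way, highest of its group in both libraries of number 1 (121.3 and 127.4 CPM). Flt3 was lowest in control replicate 1 but not in knockout replicate 1. Each other marker was lowest of its group in both. The part of the gate markers in the values of the reported targets was not tested. Within pairs of equal number the knockout was higher in all 3 pairs in 12 genes (36.4%, against 15.1% of all tested genes) and lower in all 3 in 8 genes (24.2%, against 16.5%). The 12 were Dhx40, Peli1, Picalm, Rcor1, Rictor, Ripk1, Sdcbp, Sla, Smad5, Spi1, Tab2 and Tspan14. With the replicate number as a block the lowest edgeR adjusted p among the 31 genes other than Trp53inp1 and Ets1 was 0.273, for Spi1.

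**Figure D4:**
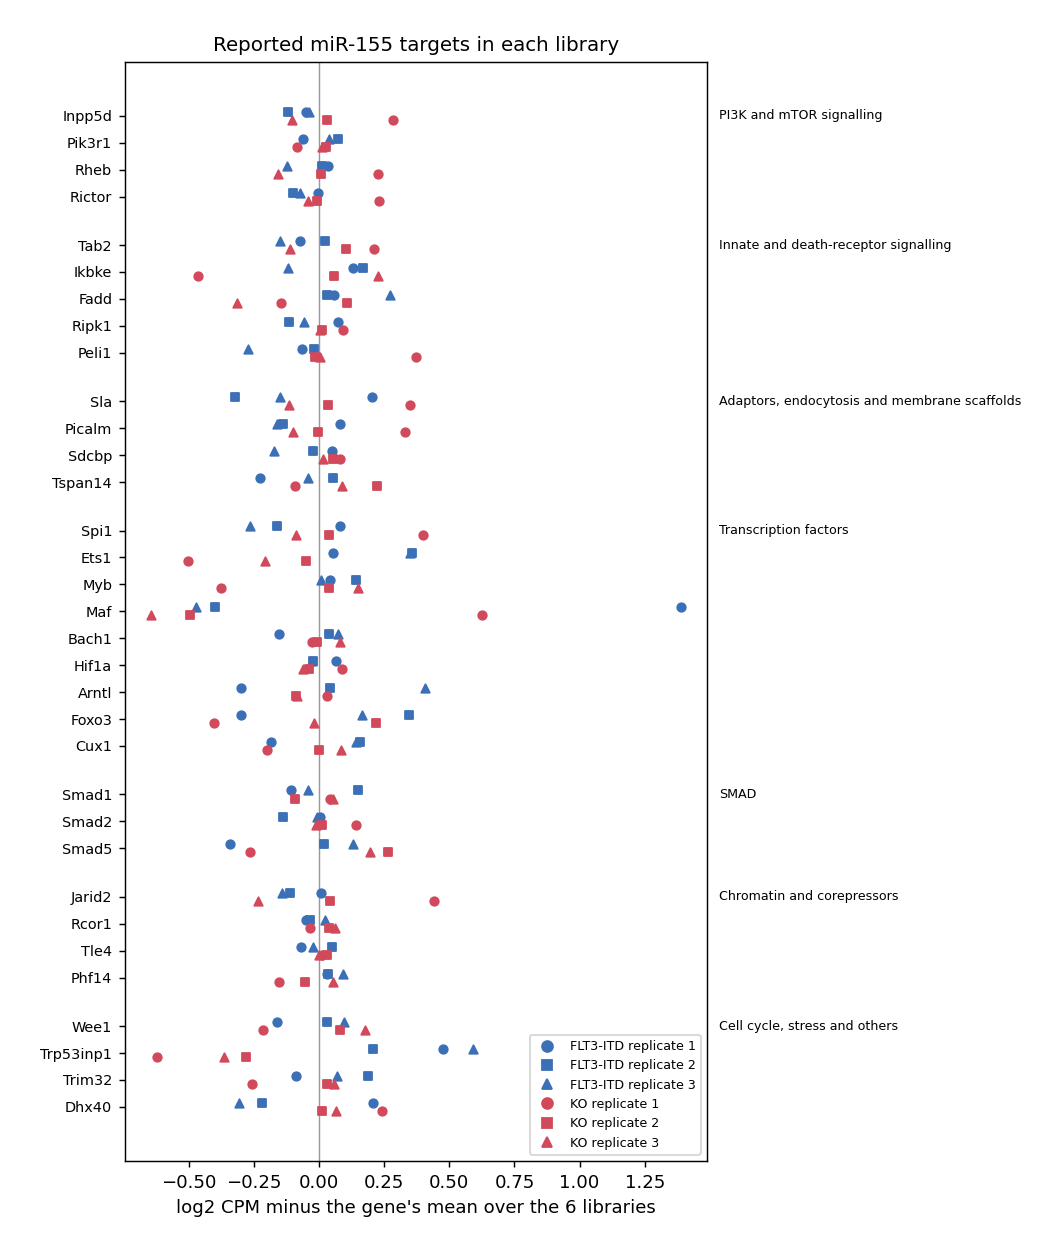
Log2 CPM of the 33 reported targets in each of the 6 libraries, shown as the deviation from the gene's mean over the libraries. Trp53inp1 separates the groups, while Maf and many other rows split replicate 1 of both groups from the rest.

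The reported targets were also grouped by their best seed match. The median log2 fold change was 0.03 for the 13 targets with an 8mer (9 above 0 and 4 below), 0.07 for the 9 with a 7mer-m8 (6 and 3), 0.09 for the 4 with a 7mer-A1 (3 and 1) and -0.10 for the 7 without a match (2 and 5). Over all tested genes the 395 with an 8mer had a median of 0.01, the 701 with a 7mer-m8 0.00, the 537 with a 7mer-A1 0.01 and the 10084 without a match 0.00. Of the 1633 tested genes with any match, edgeR called 0 higher and 0 lower, with 17 higher and 22 lower at an unadjusted p under 0.05. For the 10084 without a match, the counts at an unadjusted p under 0.05 were 140 higher and 158 lower. As shares, these were 1.04% higher and 1.35% lower with a match, against 1.39% and 1.57% without. With the block, 4 were higher and 9 lower with a match, against 34 and 31 without (0.245% and 0.551%, against 0.337% and 0.307%). DESeq2 gave 1 higher and 5 lower with a match, against 5 and 23 without (0.0612% and 0.306%, against 0.0496% and 0.228%).

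**Figure D5:**
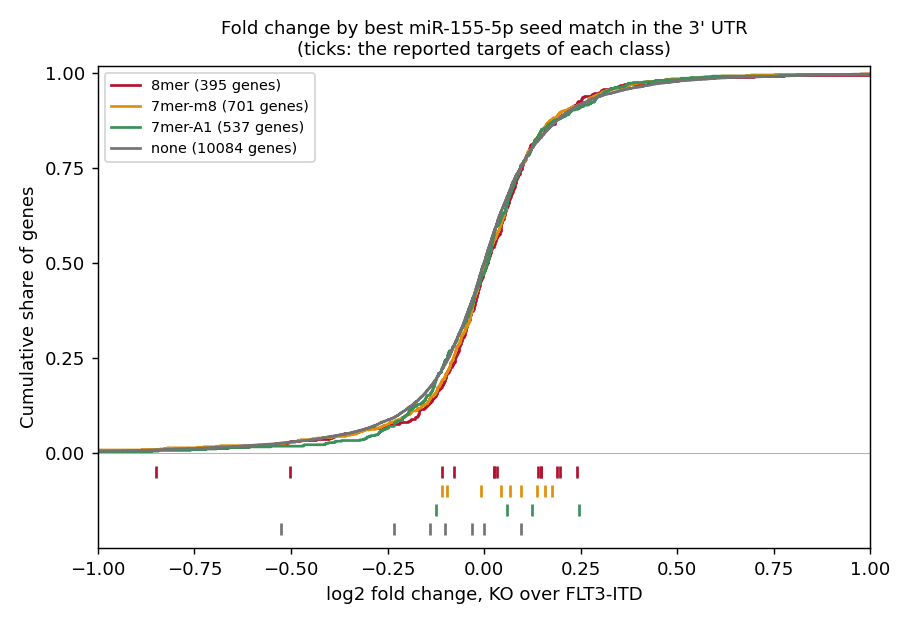
Cumulative share of tested genes against log2 fold change, by the best match to the miR-155 seed in the longest annotated 3' UTR, with ticks for the reported targets of each class. The 4 curves lie on each other near 0, and the horizontal axis ends at 1 in each direction.

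Another 22 tested genes reported as miR-155 targets in other settings were compared as context. Their median was 0.04, with 13 above 0 and 9 below. edgeR called 0 of them, with 1 higher and 2 lower at an unadjusted p under 0.05 (against 1.41% and 2.48% of all tested genes), and the block and DESeq2 each called 1 lower, Ctla4 (against 1.04% and 0.794%). Of the 22, 1 was higher and 2 were lower with no overlap between the groups, against 3.43% and 4.79% of all tested genes. The 4 with the smallest unadjusted p were Ctla4, Cebpb, Il17rb and Vhl. Cebpb, a transcription factor of granulocyte and macrophage differentiation with an 8mer match, had 18.75, 18.79 and 18.16 CPM in the controls and 25.38, 30.17 and 24.89 in the knockouts, with no overlap. Its log2 fold change was 0.53 ± 0.12, with an edgeR adjusted p of 0.346, or 0.105 with the block. Ctla4, an inhibitory receptor of T cells, had 6.505, 3.781 and 6.583 CPM in the controls and 1.988, 1.534 and 2.2 in the knockouts, also with no overlap. It differed by -1.56 ± 0.32, with an edgeR adjusted p of 0.234, and with the block it fell by 1.54 on the log2 scale, with an edgeR adjusted p of 0.0368. The T cell markers Cd28 and Cd2, given beside Ets1, were likewise lower in every knockout library than in every control, while the summed T and natural killer cell markers overlapped. Their part in the Ctla4 result was not tested. Il17rb, a receptor subunit for interleukin-25, differed by -0.63 and Vhl, which targets Hif1a for destruction, by 0.21. Socs1, a cytokine signalling inhibitor and a target in lymphocytes, had 3.252, 3.896 and 5.852 CPM in the controls and 4.435, 5.241 and 5.776 in the knockouts, which overlapped, and its difference of 0.25 ± 0.28 leaves a wide interval of -0.41 to 0.92.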

How the data were processed

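RNA of Lin- cKit+ Sca1+ cells was sequenced in 6 libraries, 3 a group. Per the submitters' processing notes, the tools were Novoalign 2.08.01 and DESeq2 1.10.1, with mm10 as the build. The sources used here do not name the read counter, annotation or strand setting. The authors deposited 1 table with raw counts per gene, FPKM, and their own log2 fold changes with p-values and adjusted p-values, per the file headers. From the counts, edgeR 4.0.16 (R 4.3.3) gave TMM-normalised CPM and a quasi-likelihood F test of knockout against control, after a filter (filterByExpr, minimum count 10, minimum total 15), with Benjamini-Hochberg adjustment over 13217 genes and a threshold of 0.05. Values written ± are standard errors. FPKM served to compare levels between genes and, as an alternative, for the median fold change of the reported targets. 4 residual degrees of freedom were left, or 2 with the replicate number as a block. Same-numbered libraries deviated together, with correlations of their deviations from the group means of 0.573, 0.526 and 0.219 for numbers 1, 2 and 3. Between unlike numbers the correlations ran from -0.512 to 0.133. The highest of these, for control replicate 3 and knockout replicate 2, was close to that of number 3, where the ground for pairing is weakest. Libraries with the same replicate number were treated as pairs on the ground of these correlations, since the labels do not state what they share. Alternatives were DESeq2 1.42.0, limma 3.58.1 (voom), other scaling and filters, the block, and leaving out libraries. Seed matches were searched in the longest 3' UTR of each gene in GENCODE M21, in which 21966 of 22475 gene identifiers matched and 15787 had a 3' UTR. Scripts were tested on simulated data. Values in every library are given for genes called in the edgeR fits, the 8 of smallest unadjusted p, those whose groups do not overlap, and Inpp5d, Spi1, Bach1 and Jarid2. The genes, lists and markers were chosen with earlier results of these data known.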

Additional observations from a re-analysis of the deposited data

How the results depend on the processing

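Results depended on the processing mainly in how many genes were called. Over all genes edgeR called 21, against 180 with the replicate block, 131 by DESeq2 and 97 with no filter on low counts, and 0 to 27 when 1 library was left out: 0 without control replicate 1 (766 at an unadjusted p under 0.05) and 0 without control replicate 3 (356 at an unadjusted p under 0.05), 9 without control replicate 2, and 8 without knockout replicate 2. Of the reported targets 0 were called, against 2 with the replicate block, 1 by DESeq2 and 1 with no filter, and 0 under each other alternative. Their median log2 fold change of 0.033 ran from 0.026 to 0.059 when 1 library was left out. The host transcript, at -2.14, passed the threshold at -2.20 with the block and -2.17 by DESeq2. The block changed no other call than those of Trp53inp1, Ets1, the host transcript, Cd28 and Ctla4 among the genes named. Leaving out both libraries of number 1 (chosen after seeing the data) turned the sign of Rheb (-0.016), Ikbke (0.11), Myb (0.021), Bach1 (-0.018) and Smad1 (-0.071). Smad1, near 0, also turned with no filter (-0.0052), with library sizes that leave out immunoglobulin genes (-0.0010) and with a stricter filter (-0.0012). When 1 library was left out the sign turned in 13 genes, none of them called: Pik3r1 (-0.067 to 0.0058), Rheb (-0.043 to 0.15), Ikbke (-0.24 to 0.083), Myb (-0.22 to 0.036), Maf (-1.04 to 0.39), Bach1 (-0.039 to 0.072), Hif1a (-0.052 to 0.026), Arntl (-0.28 to 0.078), Foxo3 (-0.30 to 0.015), Cux1 (-0.18 to 0.0016), Smad1 (-0.050 to 0.081), Jarid2 (-0.0061 to 0.34) and Wee1 (-0.047 to 0.14). The causes were not tested. With 3 pools a group, the upper 95% limit had a median of 0.33 over the 33 genes, against 0.35 over all tested genes.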
